A study of Mus musculus with 8 samples.

Results

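The 42 genes described here encode the chaperones of the cytosol and nucleus, their helper proteins and the heat shock factors. They were chosen by gene symbol, and each matched 1 row of the 45706 in the table of estimated counts. All 42 passed the filter on low counts and were among the 17000 genes tested. The level of each was compared between ribosome-bound RNA and whole-tissue RNA of the mouse hypothalamus. Every library comes from mice of the genotype Mff fl/fl;AgRP-IRES-Cre tg/wt;RpL10a-GFP fl/wt, killed in the random-fed state at 11 to 12 weeks, with 3 mice of mixed sex pooled for a library. Mff, the gene of mitochondrial fission factor, is thus deleted where Cre at the Agrp locus is active, and the same Cre turns on a GFP-tagged ribosomal protein. The immunoprecipitate (IP, 4 libraries) holds RNA pulled down with that tagged ribosome, and the input (4 libraries) holds RNA of the whole homogenate. Libraries of Mff wt/wt mice are not analysed here, so no value below measures an effect of the deletion.

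Chaperones bind unfolded stretches of other proteins and let them fold, assemble or be degraded. HSP70 proteins take clients from J proteins (DNAJ), which trigger ATP hydrolysis, and release them when a nucleotide exchange factor of the HSP110 or BAG family acts. HSP90 matures kinases and receptors with a set of co-chaperones, and the CCT ring folds actin and tubulin. Heat shock factor HSF1 turns on many of these genes in stressed cells by binding repeated GAA and TTC units in their promoters. Neurons carry high levels of the constitutive members HSC70 (Hspa8) and HSP90-beta (Hsp90ab1) and are known for a weak induction of HSP70 itself (Hspa1a, Hspa1b).

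The libraries held 39.9 to 74.6 M estimated counts each. Mff stood at 129, 122, 132 and 112 CPM (counts scaled to a common library total) in input replicates 1 to 4 and at 64.0, 71.2, 68.6 and 69.7 CPM in IP replicates 1 to 4. Which exons of Mff are removed is not stated in the labels, so this level does not check the deletion. Agrp stood at 2.64, 3.34, 3.05 and 4.38 CPM in input and 803, 801, 683 and 1083 CPM in IP. AgRP neuron markers (8 genes, all higher in IP) summed to 77.3 to 86.8 CPM in input libraries and 3113 to 4757 CPM in IP libraries. Astrocyte markers summed to 2670.1 to 3319 CPM in input and 797 to 1095 CPM in IP (9 of 9 lower), and oligodendrocyte markers to 2137 to 2696 and 613 to 895 CPM (9 of 9 lower). Microglia markers summed to 64.2 to 79.0 and 24.5 to 28.5 CPM (7 of 9 lower, 0 higher). Vascular markers summed to 39.3 to 47.8 and 13.8 to 31.2 CPM (3 of 9 lower, 0 higher). No marker was at 0 in all 4 IP libraries, and 2 vascular markers were at 0 in at least 1. IP replicate 3 stood apart from the other IP libraries. Its chi-square per degree of freedom against them was 228 to 340.0, compared with 48.4 to 62.1 among the other 3. It also had the highest astrocyte (1095 CPM), oligodendrocyte (895 CPM) and vascular (31.2 CPM) sums and the lowest AgRP sum (3113 CPM) of the IP libraries. Results that turn on it are given below with and without it.

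Most cytosolic chaperone genes were modestly higher in IP than in input. Astrocyte and oligodendrocyte markers were still present in IP (values above). How much of the chaperone level in IP came from cells other than AgRP neurons was not tested. Of the 42 genes, 25 were higher in IP, 3 were lower and 14 did not pass the threshold (edgeR quasi-likelihood test, Benjamini-Hochberg adjusted p under 0.05). Across all 17000 genes tested 24.5% were higher and 20.9% lower (45.4% in either direction), so the share of higher genes was 59.5% among the chaperone genes against 24.5%. More abundant genes pass the test more often: of the 8467 genes that averaged 10 CPM or more, 39.0% were higher and 22.7% lower. Of the 38 chaperone genes at that level, 25 (65.8%) were higher and 2 (5.26%) lower. The median log2 fold change was 0.33 over the 42 genes and -0.01 over all genes tested. At 10 CPM or more it was 0.35 over the 38 chaperone genes and 0.15 over all genes. Most differences were under 2-fold. Of the genes past the threshold, 1 (Hspb8) was at least 2-fold higher (8.37% of all genes tested were) and 2 (Hspa2 and Hspa12a) were at least 2-fold lower (12.3%). In 18 genes all 4 IP libraries lay above all 4 input libraries (24.1% of all genes tested), and in 4 all IP libraries lay below (24.0%). At 10 CPM or more, 18 of the 38 chaperone genes and 3160 of all 8467 genes had all IP libraries above. All IP libraries lay below in 2 of the 38 and in 1882 of the 8467. Under upper quartile scaling 17 of the 42 were higher and 4 lower, where 19.7% and 25.8% of all genes tested were. That scaling lowered the higher genes' share of all calls from 54.1% to 43.3%. Without IP replicate 3, 30 were higher and 4 lower, where 25.9% and 24.3% of 17401 tested genes were. The 42 genes together took 0.655% to 0.748% of the counts of an input library and 0.884% to 1.07% of an IP library. In bulk RNA, a different number of cells and a different amount of RNA per cell cannot be told apart. The fractions also differ in kind, as IP holds ribosome-bound RNA of tagged cells and input holds RNA of the whole homogenate. Differences between cell types, in ribosome binding of a transcript and in RNA carried over into IP cannot be told apart here.

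**Figure D1:**
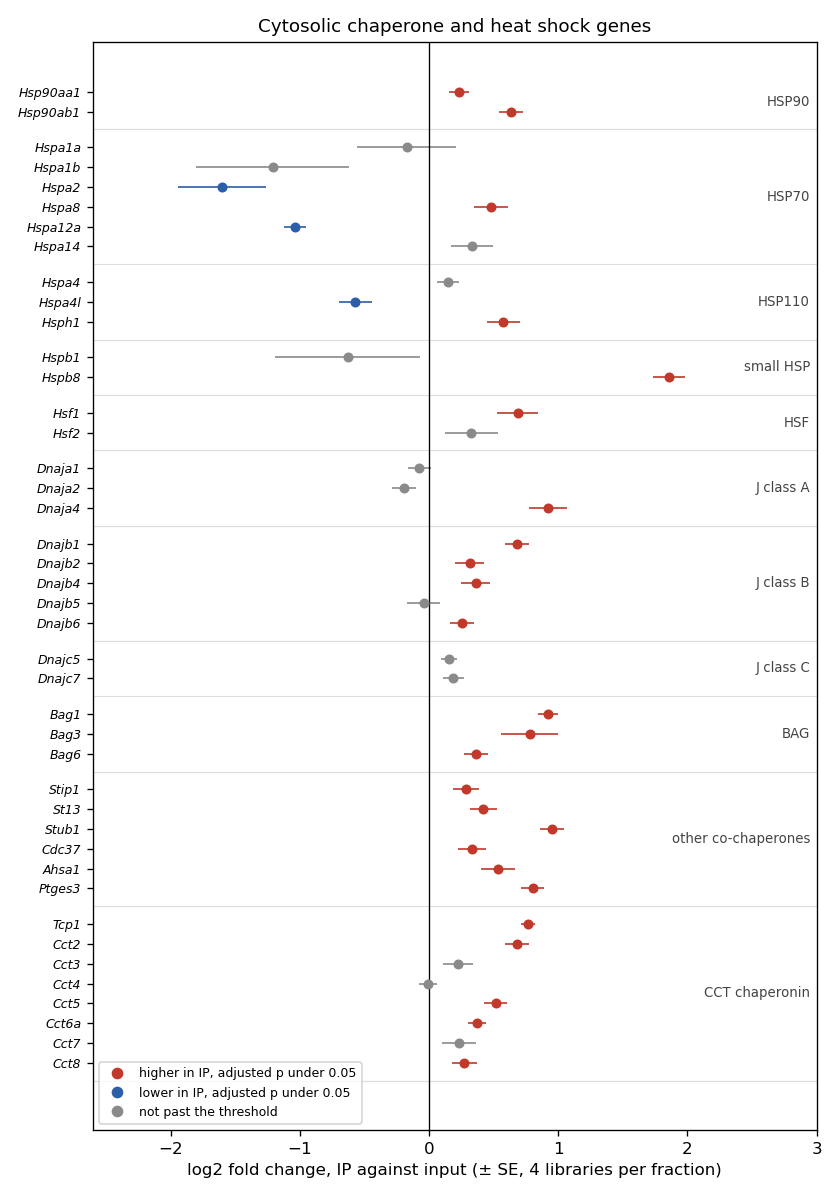
Log2 fold change (x axis, ± SE) of each of the 42 genes (y axis), IP against input, grouped by role; 4 libraries per fraction. Red points (25) are higher and blue points (3) lower at an adjusted p under 0.05, and grey points (14) did not pass; Hspb8 lies farthest to the right at 1.86 and Hspa2 farthest to the left at -1.60.

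Both HSP90 genes were higher in IP, the constitutive one by more. Hsp90ab1 stood at 1039, 1146, 938 and 1061 CPM in input replicates 1 to 4 and at 1696, 1574, 1366 and 1846 CPM in IP replicates 1 to 4. The lowest IP library lay above the highest input library, and the level rose 1.55-fold (log2 fold change 0.63 ± 0.09, SE, n = 4 libraries per fraction, edgeR adjusted p = 0.000215). Hsp90aa1, the more stress-responsive isoform, stood at 956, 967, 833 and 944 CPM in input and 1135, 1110.2, 940.4 and 1168 CPM in IP. IP replicate 3 lay inside the input range, and the log2 fold change was 0.23 ± 0.08 (adjusted p = 0.0312). That call ended under RLE scaling (0.20, adjusted p = 0.0549), under upper quartile scaling (0.10, adjusted p = 0.316), without input replicate 3 (0.20, 0.0719), without IP replicate 1 (0.22, 0.0713), without IP replicate 2 (0.23, 0.0639) and without IP replicate 4 (0.20, 0.0783). Per kilobase of transcript, the level of Hsp90ab1 was 1.42 to 1.54 times that of Hsp90aa1 in the input libraries and 1.85 to 2.06 times in the IP libraries, with no overlap. Of the 31-base words of the Hsp90aa1 transcript, 62.9% also occur in transcripts of other genes, processed pseudogenes among them, as do 16.6% of those of Hsp90ab1. The division of reads among these copies was estimated by Salmon, so both levels are uncertain to that extent.

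All 6 genes of co-chaperones that work with HSP70 and HSP90 were higher. Stub1, which encodes the ubiquitin ligase CHIP that marks chaperone-bound clients for degradation, stood at 57.8, 60.7, 56.6 and 58.0 CPM in input and 109, 122, 93.2 and 128 CPM in IP. Every IP library was far above the narrow input range, a 1.93-fold difference (log2 fold change 0.95 ± 0.10, adjusted p = 1.15e-05). Ptges3 encodes p23, which holds HSP90 in its ATP-bound closed form. Its level was 169.5, 143, 140.1 and 135 CPM in input and 288, 242, 235 and 262 CPM in IP, again without overlap (log2 fold change 0.80 ± 0.09, adjusted p = 2.58e-05). Ahsa1, the activator of the HSP90 ATPase, rose by 0.53 ± 0.13 on the log2 scale (adjusted p = 0.00713), from 55.6 ± 4.04 to 80.6 ± 17.6 CPM (SD, n = 4). Ahsa1 was not called under offsets for GC and length (0.18, adjusted p = 0.286) and under these offsets plus the replicate block (0.16, adjusted p = 0.172). St13, the HSP70-interacting protein HIP, rose by 0.42 ± 0.10 (adjusted p = 0.00616).

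Cdc37, which brings kinases to HSP90, rose by 0.33 ± 0.11 on the log2 scale (adjusted p = 0.0233). It rose by more under offsets for GC and length (0.62, adjusted p = 0.000446), where the annotated transcript used for Cdc37 is 7851 bases long. The part of that length in the larger rise was not tested. Cdc37 was not called under upper quartile scaling (0.20, adjusted p = 0.14), without input replicate 1 (0.30, 0.0707), without input replicate 3 (0.30, 0.0694) and without IP replicate 1 (0.28, 0.0563). Stip1 encodes HOP, the adaptor that hands clients from HSP70 to HSP90, and had the weakest increase of the 6 (0.29 ± 0.10, adjusted p = 0.0421). Its call ended under RLE or upper quartile scaling, without a gene filter, in limma-voom and in both fits with offsets. It also ended in every fit that left out 1 library other than input replicate 2 or IP replicate 3, with log2 fold changes of 0.19 to 0.30 and adjusted p from 0.0621 to 0.0981. The Stub1 transcript shares 38.0% of its 31-base words with Jmjd8, a gene on the opposite strand whose exons overlap it by 1084 bases. Without a stated strand setting, reads of the 2 genes cannot be told apart there. Ptges3 shares 23.5% of its words, in part with the pseudogene Ptges3-ps.

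Within the HSP70 family the members moved in different directions. Hspa8, which encodes the constitutive HSC70, had the highest level per kilobase of the HSP70 and HSP90 genes. It stood at 1422, 1323, 1166 and 1649 CPM in input and 2082, 1753, 1558 and 2368 CPM in IP. IP replicate 3 lay below the highest input library, and the rise was 1.40-fold (log2 fold change 0.48 ± 0.13, adjusted p = 0.0123). The call held in all 18 alternatives, with the highest adjusted p, 0.0498, under upper quartile scaling. Per kilobase, Hspa8 went from 581 ± 84.5 to 810.4 ± 149 CPM (SD, n = 4), Hsp90ab1 from 415 ± 34.0 to 643 ± 80.5 and Hsp90aa1 from 282 ± 18.9 to 332 ± 30.9. The order of these 3 levels was the same in each of the 8 libraries. Of the words of the Hspa8 transcript 79.7% also occur in other genes, processed pseudogenes among them.

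The stress-inducible pair Hspa1a and Hspa1b stood below 10 CPM in every library, and neither gene was called. Hspa1a (chromosome 17, 34969190 to 34972156, minus strand) stood at 3.99, 5.07, 4.75 and 5.89 CPM in input and 2.94, 3.33, 2.45 and 8.83 CPM in IP. IP replicates 1 to 3 lay below all input libraries, while IP replicate 4 was the highest of all 8. The log2 fold change was -0.17 ± 0.38 (adjusted p = 0.747). Without IP replicate 4 Hspa1a was called lower (-0.76, adjusted p = 0.0303), and without IP replicate 3 its sign turned (0.03, adjusted p = 0.958). Hspa1b (chromosome 17, 34956436 to 34959238, minus strand) stood at 1.44, 1.44, 1.75 and 2.07 CPM in input and 0.177, 0.416, 1.17 and 1.13 CPM in IP. All IP libraries were below all input libraries, yet at 10.2 to 81.0 estimated counts per IP library the difference did not pass (log2 fold change -1.21 ± 0.59, adjusted p = 0.121). It passed in limma-voom (-1.51, adjusted p = 0.0399).

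Hspa1a and Hspa1b are near-identical copies, and 70.1% and 68.2% of their transcripts' 31-base words occur in another gene, with more shared between the 2 of them than with any other. Exons of Hspa1a also overlap Gm20481 on the opposite strand by 564 bases. Their sum does not depend on how reads were divided between them. It was 5.44, 6.52, 6.49 and 7.94 CPM in input and 3.12, 3.74, 3.62 and 9.96 CPM in IP, so IP replicate 4 again stood above every other library. Counted as 1 gene, the pair differed on the log2 scale by -0.37 ± 0.35 (adjusted p = 0.421), or -0.91 (adjusted p = 0.00663) without IP replicate 4. The level of Hspa8 was 180 to 262 times the sum of the pair in input and 238 to 667 times in IP, on the CPM scale and with transcripts of similar length. Their promoters hold the same pair of GAA and TTC units, without the 3-unit form searched below. They are shown here to let a reader see how alike the copies are. In GRCm38.p6 RefSeq windows of 300 bases, 250 before the start and 50 after, they agree at 296 of 300 bases. The 90 bases from position -134 to -45 (chr17:34972201-34972290 and chr17:34959283-34959372, both minus strand, start counted as base 1 and the base before it as -1) follow, with the paired GAA and TTC units in capitals.

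Hspa1a: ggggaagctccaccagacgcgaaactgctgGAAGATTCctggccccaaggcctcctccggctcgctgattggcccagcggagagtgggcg

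Hspa1b: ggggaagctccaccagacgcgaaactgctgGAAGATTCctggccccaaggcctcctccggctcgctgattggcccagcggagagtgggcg

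The remaining HSP70 genes were lower or not called. Hspa12a, an atypical member of the family, stood at 173, 171, 164 and 179 CPM in input and 85.6, 72.9, 79.9 and 96.8 CPM in IP. Every IP library was well below every input library, a 2.05-fold decrease (log2 fold change -1.03 ± 0.09, adjusted p = 2.73e-06). Hspa2, best known from male germ cells, stood at 9.30, 9.55, 8.33 and 8.87 CPM in input and 3.79, 3.95, 1.07 and 3.09 CPM in IP, with IP replicate 3 lowest. It was 3.04-fold lower in IP (log2 fold change -1.60 ± 0.34, adjusted p = 0.00268). Both decreases held in all 18 alternatives. Astrocyte, oligodendrocyte and microglia marker sums were lower in IP as well (values above), and their part in these decreases was not tested. Hspa14, which works on the ribosome, differed by 0.33 ± 0.16 on the log2 scale (adjusted p = 0.117). Hspa14 was called higher when scaled by library totals alone (0.43, adjusted p = 0.0387), under offsets for GC and length (0.50, adjusted p = 0.0298), under these offsets plus the replicate block (0.47, adjusted p = 0.0437), without IP replicate 2 (0.43, 0.0441) and without IP replicate 3 (0.42, 0.038). The annotation holds a second gene of the same symbol whose exons overlap it by 321 bases.

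The 3 HSP110 genes, whose products release nucleotide from HSP70, differed from each other. Hsph1, the inducible HSP105, stood at 367, 389, 338 and 409.6 CPM in input and 552, 492, 464 and 731 CPM in IP. All IP libraries were above all input libraries and replicate 4 was the highest (log2 fold change 0.57 ± 0.13, adjusted p = 0.00351). Hspa4 had 0.15 ± 0.08 (adjusted p = 0.171) and was called higher when scaled by library totals alone (0.25, adjusted p = 0.0331), under offsets for GC and length (0.31, adjusted p = 0.00875) and under these offsets plus the replicate block (0.32, adjusted p = 0.00223). Hspa4l stood at 144, 149, 127 and 151 CPM in input and 105, 93.8, 71.7 and 115 CPM in IP, all IP libraries lower (log2 fold change -0.57 ± 0.13, adjusted p = 0.00345). That decrease vanished under offsets for GC and length (-0.01, adjusted p = 0.967) and under these offsets plus the replicate block (-0.04, adjusted p = 0.779), where the annotated transcript used for Hspa4l is 9479 bases long.

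J proteins choose the clients of HSP70, and the 10 measured here were split between class A, class B and class C. Of these 5 were higher, 0 lower and 5 did not pass. Dnajb1, the main stress-inducible partner of HSP70, stood at 140.1, 126, 157 and 136 CPM in input and 241, 211, 248 and 198 CPM in IP. No library of the 2 fractions overlapped, and the rise was 1.61-fold (log2 fold change 0.68 ± 0.09, adjusted p = 0.000104). Unlike Hsph1 and Hspa1a, its IP level was highest in replicate 3 and lowest in replicate 4. Dnaja4, of class A, went from 13.7 ± 0.597 to 25.9 ± 5.08 CPM (SD, n = 4), a 1.89-fold rise without overlap (log2 fold change 0.92 ± 0.15, adjusted p = 0.000347). Its transcript shares 52.2% of its words with other genes, most with Wdr61, which overlaps it on the opposite strand by 1581 exonic bases, so reads of both genes may be counted here. The abundant class A genes Dnaja1 and Dnaja2 had log2 fold changes of -0.08 ± 0.09 and -0.19 ± 0.09 and did not pass (adjusted p = 0.527 and 0.11). Dnaja2 was called lower under upper quartile scaling (-0.33, adjusted p = 0.0127) and in DESeq2 (-0.23, adjusted p = 0.037), while Dnaja1 had either sign among the alternatives. Dnaja1 shares 31.2% of its words with other genes, pseudogenes among them.

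A further 3 class B genes were higher by small amounts. Dnajb4 had 0.36 ± 0.11 (adjusted p = 0.0228) and was not called under upper quartile scaling (0.23, adjusted p = 0.122) and without IP replicate 4 (0.31, 0.063), but rose by more under offsets for GC and length (0.63, adjusted p = 0.000697). Dnajb2, a J protein with ubiquitin-binding motifs that is abundant in neurons, had 0.31 ± 0.11 (adjusted p = 0.0386), and Dnajb6, which suppresses aggregation of polyglutamine proteins, had 0.26 ± 0.09 (adjusted p = 0.0417). Neither call was stable. Leaving out any single library other than IP replicate 3 ended them, with log2 fold changes of 0.24 to 0.35 and adjusted p from 0.0563 to 0.101 for Dnajb2 and log2 fold changes of 0.18 to 0.29 and adjusted p from 0.0538 to 0.0961 for Dnajb6. Under offsets for GC and length Dnajb2 stood at 0.12, adjusted p = 0.39 and Dnajb6 at 0.06, adjusted p = 0.624. Under upper quartile scaling they stood at 0.18, adjusted p = 0.217 and 0.12, adjusted p = 0.296. Dnajb6 shares 43.8% of its words with other genes, pseudogenes among them. Dnajb5 had -0.04 ± 0.13 (adjusted p = 0.822), with either sign among the alternatives. Dnajc5 encodes cysteine string protein, a chaperone of synaptic vesicles. Dnajc5 stood at 347, 334, 342 and 335 CPM in input and 414, 363, 365 and 367 CPM in IP, with no overlap but a log2 fold change of only 0.15 ± 0.06 (adjusted p = 0.0605). It was called higher when scaled by library totals alone (0.25, adjusted p = 0.00646), in limma-voom (0.15, adjusted p = 0.0335), under offsets for GC and length (0.42, adjusted p = 0.000146), under these offsets plus the replicate block (0.42, adjusted p = 0.000281) and without IP replicate 3 (0.17, 0.0456). Dnajc7, which binds HSP70 and HSP90 through its TPR repeats, had 0.19 ± 0.08 (adjusted p = 0.0885), and was called higher when scaled by library totals alone (0.29, adjusted p = 0.0149) and without IP replicate 2 (0.24, 0.0351). On the opposite strand its exons overlap those of Nkiras2 by 287 bases and those of Cnp, an oligodendrocyte marker gene, by 154 bases, and 16.8% of its words are shared, most with Nkiras2.

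The largest rise of the 42 genes was that of Hspb8, while the other small heat shock protein gene, Hspb1, was not called and all 3 BAG genes were higher. Hspb8, a small chaperone that acts with BAG3 to send damaged proteins to autophagy, stood at 13.9, 12.7, 14.2 and 15.3 CPM in input and 50.8, 44.9, 45.0 and 62.5 CPM in IP. The IP libraries stood far above the input libraries, and the rise was 3.62-fold (log2 fold change 1.86 ± 0.13, adjusted p = 5.25e-07). The alternatives gave 1.64 to 1.95. None of the words of its transcript occurs in another gene. Its partner Bag3 stood at 14.7, 13.4, 12.9 and 15.7 CPM in input and 32.2, 21.6, 14.3 and 29.2 CPM in IP, where replicate 3 lay inside the input range (log2 fold change 0.78 ± 0.22, adjusted p = 0.0126). Bag1, a nucleotide exchange factor that couples HSP70 to the proteasome, stood at 69.1, 73.9, 79.3 and 68.4 CPM in input and 136, 139, 127 and 148 CPM in IP. The 2 fractions were far apart (log2 fold change 0.92 ± 0.08, adjusted p = 2.23e-06), and the alternatives gave 0.44 to 1.02, the lowest in the fit with GC and length offsets. Bag6, which guards tail-anchored membrane proteins, had 0.36 ± 0.09 (adjusted p = 0.00811), and was not called under upper quartile scaling (0.23, adjusted p = 0.0625).

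Hspb1, the small heat shock protein HSP25, was not called and varied widely among the IP libraries. It stood at 1.73, 3.05, 2.28 and 3.38 CPM in input and 0.761, 0.662, 3.94 and 1.36 CPM in IP, where replicate 3 was above every input library and the other 3 were below. The log2 fold change was -0.63 ± 0.56 (adjusted p = 0.391). Without IP replicate 3, Hspb1 was called lower (-1.50, adjusted p = 0.0117). The vascular marker sum in IP was 15.3, 17.8, 31.2 and 13.8 CPM in replicates 1 to 4, highest in the same library, and its part in the Hspb1 level was not tested. Hspb1 was also called lower when offsets for GC and length were combined with the replicate block (-1.58, adjusted p = 0.0494). Of the words of its transcript 65.4% are shared, chiefly with the processed pseudogene Hsp25-ps1.

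**Figure D2:**
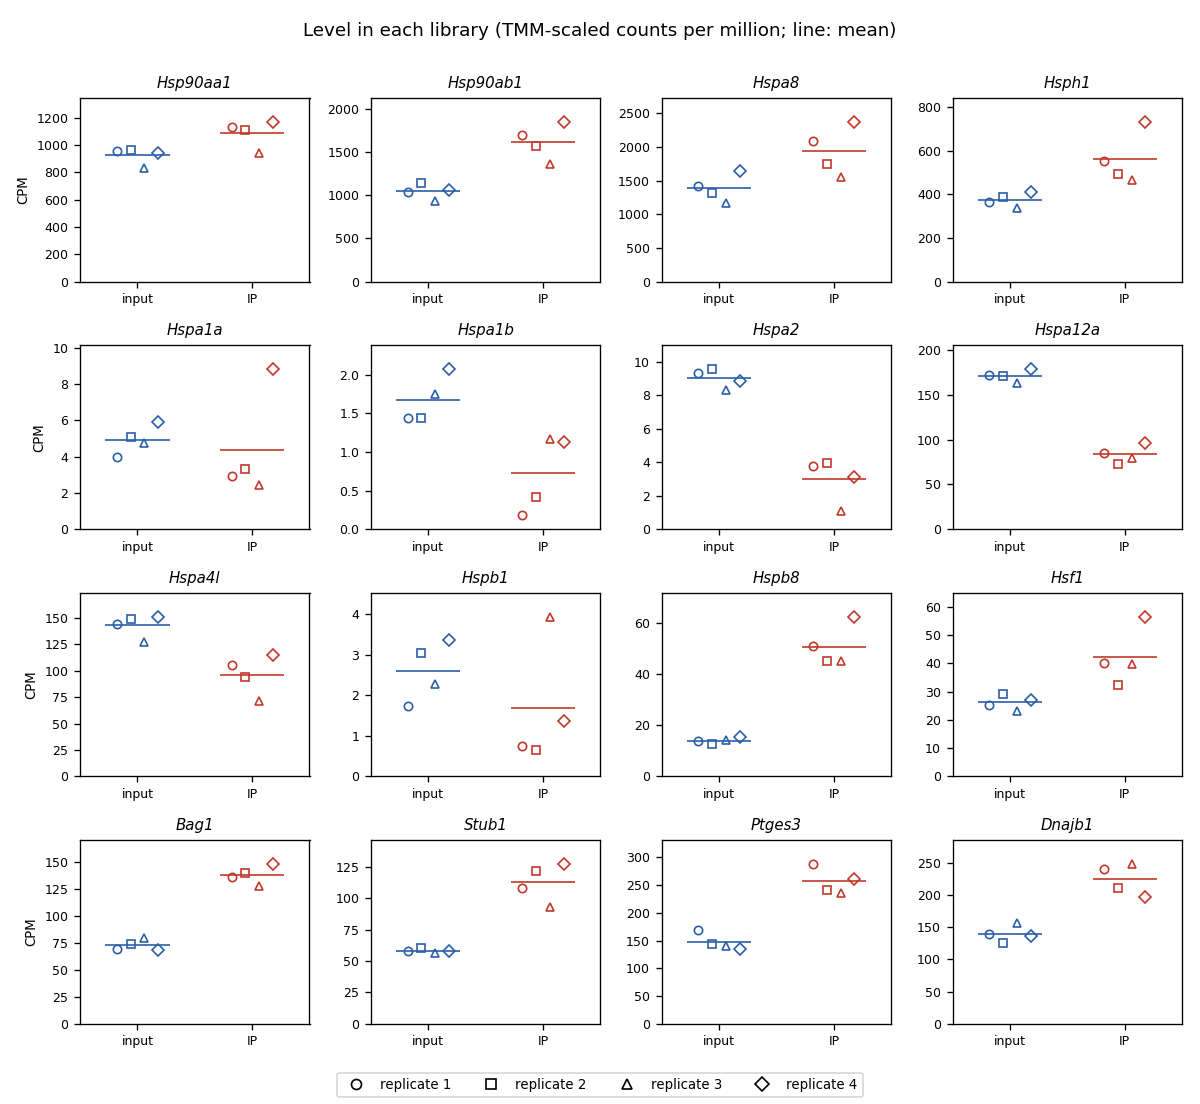
Level of 16 of the genes (y axis, TMM-scaled CPM, each panel from 0) in the 4 input libraries (blue) and 4 IP libraries (red); marker shape gives the replicate number and the line is the mean. In Hspb8, Bag1, Stub1, Ptges3 and Dnajb1 all IP points lie above all input points; IP replicate 4 of Hspa1a (8.83 CPM) and IP replicate 3 of Hspb1 (3.94 CPM) lie above the other points of their panels.

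Of the heat shock factor genes, Hsf1 was higher. Hsf1 stood at 25.3, 29.3, 23.2 and 27.0 CPM in input and 40.1, 32.4, 39.9 and 56.5 CPM in IP. All IP libraries were above the highest input library, and replicate 4 was the highest (log2 fold change 0.69 ± 0.16, adjusted p = 0.00392). Hsf2 had 0.33 ± 0.20 (adjusted p = 0.222), with IP replicate 3 below all input libraries, and was called higher without that library (0.51, adjusted p = 0.00572). RNA levels say nothing of the active form of HSF1, which is set by its release from chaperones and by modification.

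The letters that HSF1 binds were searched in the RefSeq promoter windows (GRCm38.p6), which held 35 of the 42 genes. The strict form has 3 units, GAANNTTCNNGAA or TTCNNGAANNTTC, and the loose form has 2, GAANNTTC or TTCNNGAA, where N is any base. The forms in each pair cover both strands, and a strict match contains overlapping loose ones. The strict form was in 2 of the 35 genes (5.71%), Dnajb6 and Hsph1, and in 0.662% of 27025 genes with a window. The loose form was in 15 of the 35 (42.9%) and in 17.0% of all genes. Chaperone genes had 1.4 windows on average and all genes 1.22. By call in IP, the loose form was in 11 of 20 higher genes, 0 of 3 lower genes and 4 of 12 that did not pass. Shares by call were not computed over all genes, so these counts have no background. Whether the form goes with the level in IP was not tested. The 7 genes without a window entry were Dnajc5, Hspa8, Hsp90aa1, St13, Hsf1, Cct4 and Hsp90ab1. Among them Hspa8, Hsp90aa1, St13, Hsf1 and Hsp90ab1 were called higher in IP. These are counts of letters, and no binding was measured. Stretches of the promoters of 6 genes that hold a match are shown as examples of the strict and loose forms. They include the gene with the largest rise and 2 genes whose rise was near 2-fold. Bag1, which rose 1.89-fold, had a window but no match. The stretches of Dnajb6 (chr5:29735822-29735897, plus strand) and Hsph1 (chr5:149636281-149636308, minus strand) have the strict match in capitals. The match spans positions -46 to -34 in Dnajb6, before the start, and 16 to 28 in Hsph1, after the start.

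Dnajb6: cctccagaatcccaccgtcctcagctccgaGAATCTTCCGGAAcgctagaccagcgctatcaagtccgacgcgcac

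Hsph1: gctgcagaTTCTGGAAAGTTCtcctcag

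Loose matches are in capitals in Hspb8 (chr5:116422843-116422870, minus strand), Dnaja4 (chr9:54699439-54699528, plus strand, 2 matches), Stub1 (chr17:25832983-25833072, minus strand) and Hspb1 (chr5:135887772-135887861, plus strand, 2 matches). The Hspb8 match spans positions 3 to 10, after the start, and the matches shown in Dnaja4, Stub1 and Hspb1 lie before it. Among these genes Hspb8, Dnaja4 and Stub1 were higher in IP and Hspb1 was not called.

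Hspb8: agccaggaGAAGTTTCtaggctcgcgag

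Dnaja4: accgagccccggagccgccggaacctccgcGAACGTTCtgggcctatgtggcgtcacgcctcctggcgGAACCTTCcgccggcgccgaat

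Stub1: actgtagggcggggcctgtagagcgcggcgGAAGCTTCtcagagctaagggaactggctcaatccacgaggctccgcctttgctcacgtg

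Hspb1: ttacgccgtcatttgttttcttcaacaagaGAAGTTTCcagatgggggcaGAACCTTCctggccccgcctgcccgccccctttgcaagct

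The CCT chaperonin is a double ring in which each of 8 different subunits takes 1 place per ring. Of the 8 subunit genes 5 were higher in IP, 0 were lower and 3 did not pass. Tcp1, the alpha subunit, stood at 164, 162, 171 and 158 CPM in input and 281, 268, 283 and 280.2 CPM in IP. The fractions were tight and wide apart (log2 fold change 0.77 ± 0.06, adjusted p = 9.54e-07). Cct2 stood at 103, 105, 106 and 104 CPM in input and 191, 146, 147 and 184 CPM in IP, also without overlap (log2 fold change 0.68 ± 0.09, adjusted p = 0.000128). Cct5 rose by 0.52 ± 0.09 (adjusted p = 0.000607) and Cct6a by 0.37 ± 0.07 (adjusted p = 0.00139), each with all IP libraries above all input libraries. Cct8 had 0.27 ± 0.10 (adjusted p = 0.0359), and its call ended under RLE scaling (0.24, adjusted p = 0.0556), under upper quartile scaling (0.14, adjusted p = 0.252), when genes were not filtered (0.26, adjusted p = 0.0508), without input replicate 3 (0.25, 0.0865), without input replicate 4 (0.22, 0.0865), without IP replicate 1 (0.24, 0.0812), without IP replicate 2 (0.26, 0.0708) and without IP replicate 4 (0.27, 0.0641). Cct3 (0.23 ± 0.11, adjusted p = 0.131) and Cct7 (0.23 ± 0.13, adjusted p = 0.168) did not pass. Without IP replicate 3 both were called higher (0.31, adjusted p = 0.0245 for Cct3 and 0.35, adjusted p = 0.00749 for Cct7), as when scaled by library totals alone (0.32, adjusted p = 0.0281 and 0.33, adjusted p = 0.0448).

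Cct4 was the subunit gene with the smallest difference. It stood at 61.8, 58.3, 58.1 and 61.7 CPM in input and 59.5, 62.5, 56.2 and 59.9 CPM in IP, so the fractions lay within the same range (log2 fold change -0.01 ± 0.07, adjusted p = 0.916, either sign among the alternatives). Per kilobase of transcript, Tcp1 had the highest level of the 8 in every library. It went from 66.9 ± 2.17 to 114 ± 2.72 CPM per kilobase (SD, n = 4), and Cct2 from 53.3 ± 0.694 to 85.3 ± 12.2. Cct3 had the lowest mean level in both fractions, 18.9 ± 2.02 and 22.1 ± 2.72, followed by Cct4 at 24.1 ± 0.839 and 24.0 ± 1.04, and these neighbours lay within about 1 SD of each other in IP. Summed over the 8 subunits the level was 338 to 364 CPM per kilobase in input and 439.7 to 517 in IP. The ratio of the highest to the lowest subunit was 3.08 to 4.31 in input libraries but 4.75 to 6.30 in IP libraries, so subunit levels were spread more widely in every IP library than in any input library. Tcp1 shares 24.8% of its words with other genes, most with Acat3 on the opposite strand, and Cct6a 17.4% with Psph, also on the opposite strand.

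**Figure D3:**
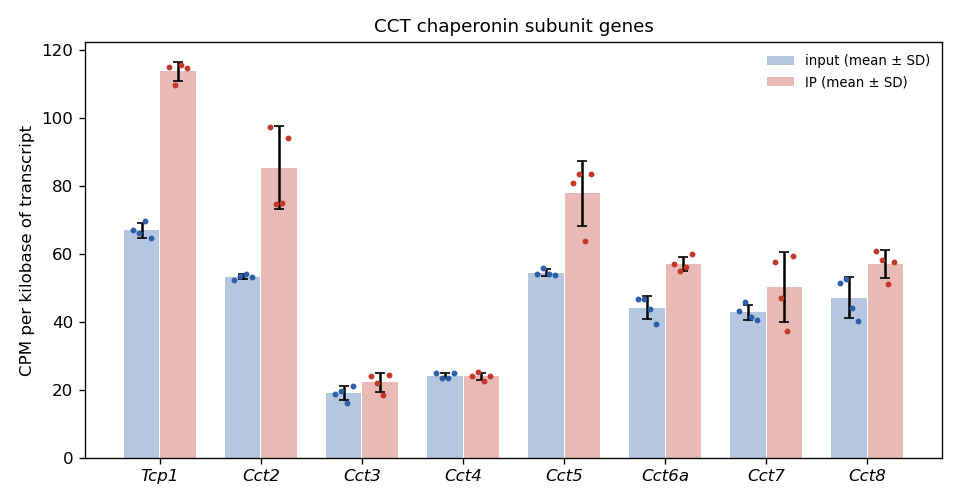
Level of the 8 CCT subunit genes (x axis) in CPM per kilobase of transcript (y axis); bars are means and error bars SD over 4 input (blue) or 4 IP (red) libraries, and dots are single libraries. Tcp1, Cct2, Cct5 and Cct6a have separate fractions, whereas Cct4 stays at 24.1 in input and 24.0 in IP.

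Other genes listed with the cytosolic chaperone system by family or name, not all of them cytosolic, were also more often higher than lower. Their lists do not contain the 42. Of 62 tested, 30 (48.4%) were higher and 6 (9.68%) lower, with a median log2 fold change of 0.30. Over all genes tested 24.5% were higher and 20.9% lower, with a median of -0.01. Of genes averaging 10 CPM or more 39.0% were higher and 22.7% lower, with a median of 0.15. The counts of single lists below are to be read beside these shares. Every gene named from these lists passed at an adjusted p under 0.05 in edgeR. Among 15 further HSP90 co-chaperone genes 7 were higher and 0 lower, and the smallest p among them were those of Cacybp (0.76 ± 0.08 on the log2 scale) and the phosphatase gene Ppp5c (0.61 ± 0.08). Among 20 further J protein genes 9 were higher and 5 lower. The splicing-associated Dnajc8 rose by 0.84 ± 0.07 on the log2 scale. Of 9 prefoldin and CCT cofactor genes 6 were higher and 0 lower. Prefoldin passes nascent actin and tubulin to the CCT ring. Pfdn5 stood at 97.1, 94.0, 111 and 97.4 CPM in input and 308, 257, 274 and 310.0 CPM in IP (log2 fold change 1.52 ± 0.08), and Pfdn1 rose by 1.20 ± 0.08. Of 5 tubulin folding cofactor genes 3 were higher and 0 lower. Tbca, which captures beta-tubulin released from the ring, stood at 84.9, 72.8, 95.3 and 80.0 CPM in input and 299, 276, 257 and 326 CPM in IP (log2 fold change 1.80 ± 0.10).

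Further genes listed with the smaller families split, where 24.5% of all genes tested were higher and 20.9% lower. Hsbp1, whose product binds heat shock factors, rose by 1.42 ± 0.07, the 1 call among 3 tested genes of its list. Of 4 other genes listed by name with the small heat shock proteins 1 was higher (Hspb11, 0.82 ± 0.18) and 1 lower. Hspb11 is listed by its symbol, which does not show that its product is a chaperone. The lower one, Cryab, encodes alpha-B crystallin, which is abundant in glia. It stood at 113, 112, 116 and 145 CPM in input and 26.9, 36.5, 47.2 and 39.9 CPM in IP (log2 fold change -1.69 ± 0.16), beside the lower oligodendrocyte and astrocyte marker sums, whose part was not tested. Of 6 further HSP70 genes and co-chaperones 3 were higher and 0 lower, among them Hspa13 (0.93 ± 0.12).

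Chaperones of other compartments are given for comparison, as shares of genes tested. Over all genes tested 24.5% were higher and 20.9% lower, and at 10 CPM or more 39.0% and 22.7%. ER chaperone genes were higher in 13 of 18 (72.2%) and lower in 1, with a median log2 fold change of 0.53, and Hyou1 (1.18 ± 0.08) and Manf (1.47 ± 0.16) had the smallest p. Mitochondrial chaperone genes were higher in 3 of 11 (27.3%, near the share over all genes tested) and lower in 2, with a median of 0.16. They included Hspe1 (1.48 ± 0.13) among the higher and Trap1 (-0.36 ± 0.13), a mitochondrial relative of HSP90, among the lower. Proteasome subunit genes were higher in 15 of 31 (48.4%) and lower in 0, with a median of 0.23. The differences between these lists and the 42 genes were not tested.

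**Figure D4:**
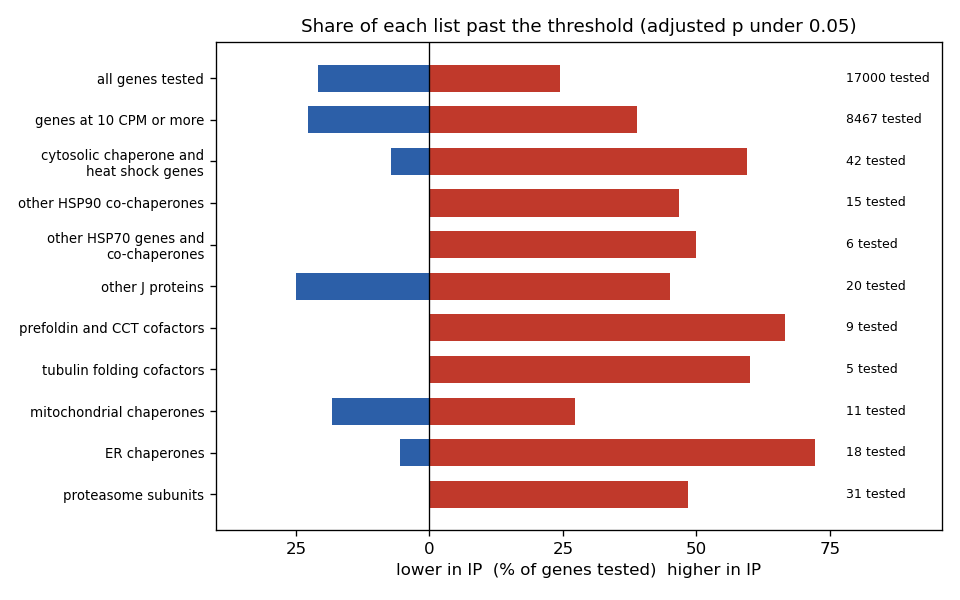
Percentage of tested genes that were higher (red, to the right) or lower (blue, to the left) in IP at an adjusted p under 0.05, for all genes, genes averaging 10 CPM or more, the 42 chaperone and heat shock genes, and the other lists (y axis, number tested at the right). The 42 genes reach 59.5% higher and 7.14% lower, against 24.5% and 20.9% over all genes tested.

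The level of the 42 genes also differed among IP libraries. IP replicate 4 was the highest IP library for 22 of them (52.4%) and for 25.8% of all genes tested. IP replicate 3 was the lowest for 27 (64.3%) and for 29.8% of all genes tested. Among the exceptions, Dnajb1, Hspa1b, Tcp1 and Hspb1 were highest in replicate 3. AgRP marker sums were 3678, 3517, 3113 and 4757 CPM in IP replicates 1 to 4, so these libraries also had the highest and the lowest AgRP sum. Whether the marker level and the chaperone level are related was not tested. For the 38 genes at 10 CPM or more the median coefficient of variation was 6.89% in input and 13.0% in IP, and over all genes at that level 6.45% and 13.8%.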

How the data were processed

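RNA was sequenced from 4 input and 4 IP libraries, each a pool of 3 mice, grouped and numbered by sample title. The authors deposited estimated counts for each gene, without normalization. The submitters' processing notes name Salmon 0.14.1 and GRCm38.p6. Neither the annotation nor the strand setting is stated in the sources at hand. Of the gene identifiers 98.8% were found in GENCODE M21 (GRCm38), which gave coordinates, transcript length and GC content from the longest APPRIS principal protein-coding transcript. Library totals were 39.9 to 74.6 M, so counting error is small for all but the rarest genes.

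Estimated counts were rounded and tested with edgeR 4.0.16 (R 4.3.3): filterByExpr with a minimum count of 10, TMM factors, the quasi-likelihood test of IP against input with no covariate, and Benjamini-Hochberg adjustment over 17000 genes at 0.05. SE was taken as |log2 fold change| over the root of F. CPM are TMM-scaled and use the summed counts of tested genes. Each label describes its own pool, but none says that IP and input of 1 number share mice. P-values measure the spread between these pools. The script was tested on simulated data.

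The 42 genes and all lists were chosen with earlier results of these data known. Values in every library are printed for the 8 genes with the smallest adjusted p in each direction (3 where lower) and for Hsp90aa1, Hsp90ab1, Hspa8, Hspa1a, Hspa1b and Hsf1; Hsph1, Bag3, Hspb1, Dnajc5, Cct4, Pfdn5, Tbca and Cryab were added after their values were seen. From each other list the 2 genes with the smallest p per direction could be named. Alternatives were other scaling factors (RLE, upper quartile, library totals alone), other filters (none, or 1 CPM in 4 libraries), DESeq2 1.42.0, limma-voom (limma 3.58.1), GC and length offsets (splines with 5 degrees of freedom), the replicate number as a block, and leaving out each library.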

Additional observations from a re-analysis of the deposited data

Results flagged for a closer look

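In 5 of 84 groups of 4 libraries (42 genes in 2 fractions) 1 library lay far from the other 3 by Dixon's criterion, which sets its gap to the nearest against the whole range. Chance flags about 1 group in 20. Hspa1a in IP replicate 4 stood at 8.83 CPM against 2.45 to 3.33 CPM in the other IP libraries. Cct5 in IP replicate 3 stood at 118 CPM against 149.8 to 155 CPM. Dnajc5 in IP replicate 1 stood at 414 CPM against 363 to 367 CPM. Tcp1 in IP replicate 2 stood at 268 CPM against 280.2 to 283 CPM, a small gap in a tight group. Hsp90aa1 in input replicate 3 stood at 833 CPM against 944 to 967 CPM. Leaving out the library changed a call for Hspa1a, which was then lower, and for Hsp90aa1, which was then not called (values in the report).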

How the results depend on the processing

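Over the alternatives, 17 (upper quartile scaling) to 31 (library totals alone) chaperone genes were higher in IP, against 25 as reported, and leaving out 1 library gave 19 to 30. Of all genes tested 19.7%, 28.4% and 21.1% to 25.9% were higher in the same settings, and 24.5% as reported. The number lower (3) was 2 under offsets for GC and length and 4 under upper quartile scaling, in DESeq2 and in limma-voom, and leaving out 1 library gave 3 to 4. Of the 25 higher genes 16 kept their call in all 18 alternatives, as did 2 of the 3 lower ones. The median log2 fold change of all genes, -0.01, moved to -0.15 under upper quartile scaling and 0.09 when scaled by library totals alone. With the replicate block 25 genes were higher and 3 lower, so it moved neither count. Same-numbered input and IP libraries deviated together weakly (r of 0.0484 to 0.0836 over genes), though each library correlated best with its own number. Every pair of unlike number had a negative r (-0.0379 to -0.00165). Deviations were taken from the mean of each fraction, so a positive r within a number brings negative ones between numbers on average. The negative values are thus no separate observation. Shared pools are not stated in the labels, and the numbers were not treated as pairs. The 4 genes below had no call as reported and changed sign. Dnaja1 stood at 0.020 when scaled by library totals alone, 0.22 under the offsets and 0.21 under offsets plus block. The annotated transcript used for Dnaja1 in the offsets is 5622 bases long. Cct4 stood at 0.091, 0.0058 and 0.0054 in the same settings, and at -0.032 to 0.018 when 1 library was left out. Dnajb5 stood at 0.059 when scaled by library totals alone and at -0.12 to 0.018 when 1 library was left out. Hspa1a ran from -0.76 to 0.027 when 1 library was left out. The cause of these changes was not tested. The lowest estimated count of any of the 42 genes in a library was 10.2, for Hspa1b in IP replicate 1, and counting error is largest there.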
